A study of Homo sapiens with 40 samples.

Results

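The guanylate-binding protein (GBP) genes of human chromosome 1 were examined here as a stretch of open chromatin. The 7 genes, GBP1 to GBP7, lie side by side between 89006679 and 89388160 (hg38), over 381 kb. The regions described below were selected on presence and position. Peaks of the 40 deposited lists were merged wherever they shared at least 1 bp, merged regions found in at least 2 lists were kept, and those whose midpoint lay in a GBP gene body or within 20 kb of either end of one were taken. This gave 7 regions of 71600 in the whole series. How often a region was open therefore took part in its selection, but neither the cell line, the ligand nor the time did.

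The libraries came from ATAC-seq, in which a transposase cuts and tags accessible DNA. BT474 is a human HER2-amplified breast ductal carcinoma line that trastuzumab, an antibody against HER2, restrains. BT474R is BT474 clone 5, a single resistant clone obtained by growing BT474 in trastuzumab. Both lines were starved of serum and were then collected at once (baseline, 0 h) or after 1, 12 or 24 h with vehicle (water), with epidermal growth factor (EGF), which binds HER1, or with heregulin (HRG), which binds HER3 and HER4. Each of the 20 groups held 2 libraries, so each line had 20 libraries and each ligand 6 per line. The duplicates may be technical, and p-values measure the spread between these libraries only. The lists held 47571 to 56846 peaks in BT474 and 32479 to 56494 in BT474R, without read counts, so the depth behind a missing peak is unknown. Promoters of all 8 luminal markers on a fixed list (KRT8, KRT18, KRT19, EPCAM, CDH1, GATA3, FOXA1 and ERBB2) carried a peak in all 40 libraries. Of 5 leukocyte markers CD14 had one in 13 libraries of BT474, and PTPRC, CD3E, LYZ and SPI1 had none. Of 3 fibroblast markers COL1A2 had none, PDGFRB had one in 12 libraries of BT474 and COL1A1 in all 40.

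GBPs are large GTPases of the dynamin superfamily. They assemble on the membranes of intracellular pathogens and on the vacuoles that hold them, and they are among the genes most strongly induced by interferon-gamma. That induction runs through the receptor (IFNGR1, IFNGR2), the kinases JAK1 and JAK2 and factors bound at gamma-activated sites (GAS), and through IRF1, which binds interferon-stimulated response elements (ISRE). The genes arose by tandem duplication and remain similar in sequence.

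Before the values, 3 of the regions away from GBP starts are shown as sequence because their presence varied between lines, ligands or times. Also shown are 2 of the GBP promoters where no library had a peak. These held more motif matches than the other GBP promoters searched, whose matches are given below. Regions are given as 201 bases centred on the summit of the highest-scoring peak (plus strand, hg38), and promoters as the 250 bases before the start from RefSeq (GRCh38.p14, minus strand, as transcribed). Capitals mark matches to an ISRE core (GAAANNGAA), a GAS core (TTCNNNGAA) or an AP-1 motif (TGANTCA) on either strand.
GBP3 intronic, chr1:89018380-89018580: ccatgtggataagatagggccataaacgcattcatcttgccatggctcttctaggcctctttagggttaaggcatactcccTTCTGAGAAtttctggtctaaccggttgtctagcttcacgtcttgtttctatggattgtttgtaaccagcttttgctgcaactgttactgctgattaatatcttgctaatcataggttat
GBP2-GBP1 intergenic, chr1:89088559-89088759: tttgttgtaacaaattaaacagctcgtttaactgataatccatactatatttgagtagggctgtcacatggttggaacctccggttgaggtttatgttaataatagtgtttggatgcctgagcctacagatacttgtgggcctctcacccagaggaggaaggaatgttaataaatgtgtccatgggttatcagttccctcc
upstream of GBP6, chr1:89357118-89357318: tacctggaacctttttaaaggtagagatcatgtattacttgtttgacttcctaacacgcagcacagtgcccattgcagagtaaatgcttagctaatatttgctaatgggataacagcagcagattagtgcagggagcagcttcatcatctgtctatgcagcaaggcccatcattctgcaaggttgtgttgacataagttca
GBP1 promoter, chr1:89065209-89065458: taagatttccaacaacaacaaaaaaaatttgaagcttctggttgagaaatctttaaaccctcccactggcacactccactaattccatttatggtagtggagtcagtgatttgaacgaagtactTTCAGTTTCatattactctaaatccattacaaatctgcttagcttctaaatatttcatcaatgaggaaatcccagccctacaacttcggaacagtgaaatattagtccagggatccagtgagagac
GBP3 promoter, chr1:89022867-89023116: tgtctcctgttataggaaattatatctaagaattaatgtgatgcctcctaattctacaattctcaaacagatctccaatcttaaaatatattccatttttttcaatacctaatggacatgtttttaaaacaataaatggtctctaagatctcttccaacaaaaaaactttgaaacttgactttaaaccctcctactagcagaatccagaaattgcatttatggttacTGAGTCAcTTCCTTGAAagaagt

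Within 100 bp of the summit, the GBP3 intronic region held 1 GAS core, the GBP2 promoter region 1 AP-1 motif, and the other 5 regions none of the 3 motifs. Over all 71600 regions, windows of the same length held an ISRE core in 4.26%, a GAS core in 5.4% and an AP-1 motif in 16.3%. RefSeq promoters, from 250 bases before to 50 after the start, were matched for 5 of the 7 genes. GBP1 held 2 ISRE cores, GBP3 held 1 ISRE core, 1 GAS core and 1 AP-1 motif, GBP4 held 1 ISRE core, GBP6 held 1 AP-1 motif and GBP7 none. Of all 35116 RefSeq promoters 8.11% held an ISRE core, 7.66% a GAS core and 7.71% an AP-1 motif. A match gives letters only and does not show binding.

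GBP2 was the only one of the 7 genes with a peak at its promoter. Its region, chr1:89125693-89126459, covered an annotated GBP2 start at 89126114 with the adjoining exon and a start of the long non-coding gene ENSG00000289582, and it was open in 34 of 40 libraries. GBP1, GBP3, GBP4, GBP5, GBP6 and GBP7 had no peak within 1 kb of any annotated start in any of the 40 libraries. Over the genome, 14216 of 19970 protein-coding genes (71.2%) had a region within 1 kb of a start, and 11284 (56.5%) had one open in all 40. All 8 genes on the list of neighbours (PKN2, GTF2B, KYAT3, RBMXL1, LRRC8B, LRRC8C, LRRC8D and ZNF326) had one, and 7 of them in all 40 libraries. The GBP promoters without a peak lay between flanking genes with one.

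The remaining 6 regions lay away from GBP starts. The KYAT3/RBMXL1 promoter, chr1:88992338-88993363, 13.8 kb beyond the GBP3 end, belongs to genes of tryptophan metabolism and RNA binding and was open in all 40 libraries, and a fragment at its edge, chr1:88991978-88992167, was open in 3. A region downstream of GBP3, chr1:88998785-88999039, was open in 8. The GBP3 intronic region, chr1:89018346-89018822, lay 4.2 kb from a GBP3 start and was open in 23. The GBP2-GBP1 intergenic region, chr1:89088418-89088922, lay 17.5 kb beyond the GBP2 end and was open in 8. The region upstream of GBP6, chr1:89356831-89357487, lay 6.9 kb before the only annotated GBP6 start and was open in 37. The median over the 7 regions was 23 libraries, against 30 over all regions.

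**Figure D1:**
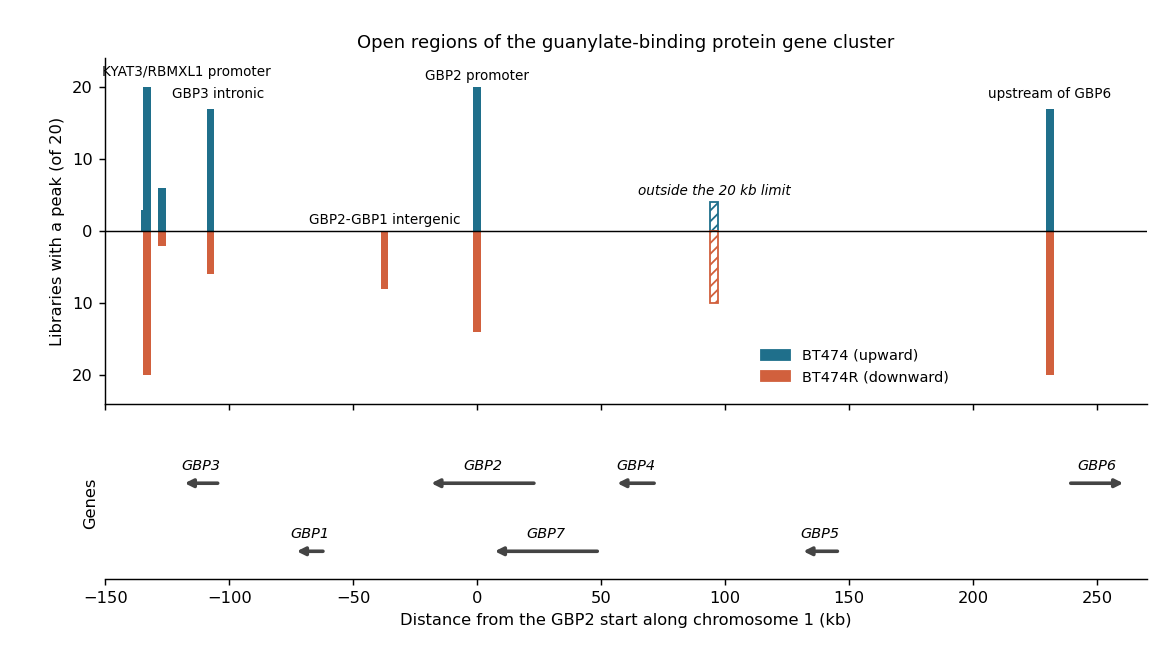
Number of libraries of 20 with a peak (BT474 upward, BT474R downward) at each region, against the distance in kb from the GBP2 start along chromosome 1, with the GBP gene bodies as arrows in the direction of transcription. Only the GBP2 bar stands at a GBP start, and the hatched bar is the region 22.6 kb from GBP4 that lay just outside the 20 kb limit.

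Peak strength is given as the percentile of the authors' peak score (column 7, lowest value 200) within its own list, where 100 is the strongest peak. The KYAT3/RBMXL1 promoter ranked between 95.3 and 97.6 in every library. The GBP regions were weak beside it. GBP2 promoter peaks ranked from 0.877 to 29.1, GBP3 intronic peaks from 2.86 to 25.7, GBP2-GBP1 intergenic peaks from 1.69 to 21.8 and peaks upstream of GBP6 from 0.22 to 52.9. Peaks downstream of GBP3 ranked from 2.22 to 14.2 and those of the KYAT3/RBMXL1 edge from 4.88 to 10.8.

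**Figure D2:**
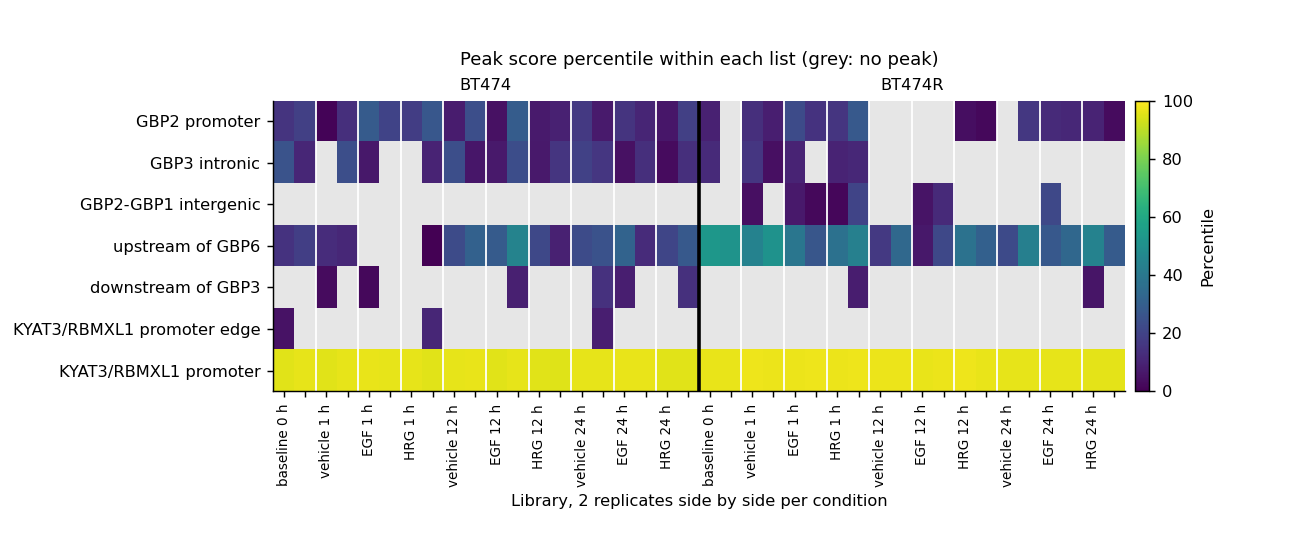
Percentile of the peak score within its list (colour, 0 to 100) for the 7 regions in the 40 libraries, ordered by line, time and arm, with replicates side by side and grey where the list had no peak. The KYAT3/RBMXL1 promoter row stays at 95.3 or above throughout, while the other rows are at 52.9 or below or grey.

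GBP2 encodes a GBP that carries a lipid anchor and resides on membranes. In BT474 its promoter was open in 20 of 20 libraries, with a lowest percentile of 0.877, a median of 15.1 and a highest of 29.1. In BT474R it was open in 14 of 20, with percentiles from 2.26 to 27.9 and a median of 11.6. The 6 BT474R libraries without a peak were both with vehicle at 12 h, both with EGF at 12 h, 1 with vehicle at 24 h and 1 at baseline. These were also 6 lists of only 32479 to 44546 peaks, and the BT474R lists with the peak held 42604 to 56494. Across the 20 BT474R libraries the percentile, set to 0 without a peak, had a Spearman correlation of 0.758 with the number of peaks in the list, a description over libraries that share clone and processing.

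At 1 h, GBP2 promoter peaks ranked higher with either ligand than with vehicle in both lines. In BT474 the percentiles were 28.6 and 20 with EGF, 18 and 27.2 with HRG, and 0.877 and 13.3 with vehicle. In BT474R they were 22.8 and 14.8 with EGF, 15.5 and 27.9 with HRG, and 13.6 and 8.56 with vehicle. The 4 ligand libraries lay above the 2 vehicle libraries in each line. The share of all regions with this order was not counted. Baseline BT474 libraries, at 15.1 and 18.8, overlapped the ligand values, and at 12 and 24 h the arms overlapped in BT474. In BT474R at 12 h only HRG libraries had the peak, at 3.76 and 2.26, and their lists were the longest of that time (45808 and 42604 peaks). The limma estimates at 1 h in BT474, on the normal score of the within-list rank (in units of 1 SD of all peaks), were 1.04 ± 0.44 (SE) for EGF and 0.98 ± 0.44 for HRG, with unadjusted p of 0.0332 and 0.0428 and adjusted p of 0.265 and 0.197, so neither passed the threshold of 0.05. Both estimates rested on few libraries. With each library left out in turn they ran from 0.41 to 1.67 for EGF and from 0.35 to 1.61 for HRG, lowest without the vehicle library at 0.877 and highest without the one at 13.3. In BT474R at 1 h, limma used percentiles set to 0 without a peak. The differences were 7.76 ± 5.37 (SE) points for EGF (adjusted p = 0.53) and 10.63 ± 5.37 for HRG (adjusted p = 0.878). Neither passed, where 3.4% and 0.856% of regions were called.

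The 3 promoter regions of other chromosomes whose percentiles followed the GBP2 promoter most closely over the 20 BT474R libraries were those of VPS37B on chromosome 12 (Spearman 0.919), ASCC3 on chromosome 6 (0.894) and DTNA on chromosome 18 (0.894), among 15183 candidates. The ASCC3 region was open in all 20, the VPS37B region in 12 and the DTNA region in 13. These libraries also share list length, with which the GBP2 promoter itself correlated at 0.758.

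**Figure D3:**
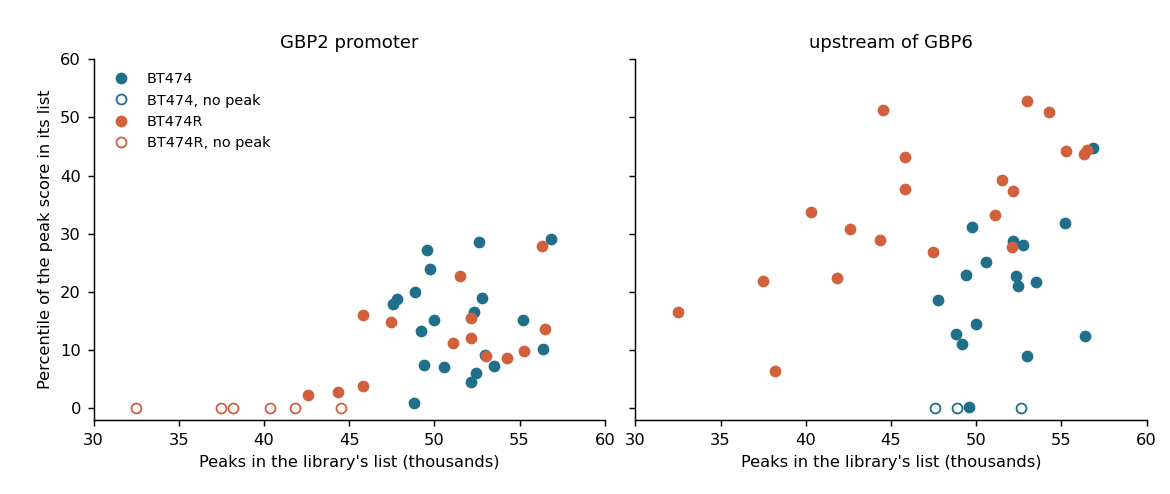
Percentile of the peak score for the GBP2 promoter (left) and the region upstream of GBP6 (right), one point per library, against the number of peaks in its list, with open points at 0 for libraries without a peak. At GBP2 the open points are the short BT474R lists, and upstream of GBP6 they are BT474 lists of ordinary length.

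The GBP2-GBP1 intergenic region was seen in BT474R alone. No BT474 library of 20 had a peak there. In BT474R it was open in 5 of 6 EGF libraries, 2 of 6 HRG libraries, 1 of 6 vehicle libraries and 0 of 2 at baseline. With EGF the percentiles were 6.96 and 2.19 at 1 h, 5.2 and 12.1 at 12 h and 21.8 in 1 library at 24 h. With HRG the peaks were both at 1 h, at 1.69 and 20.5, and the single vehicle peak was at 1 h, at 3.99. The EGF arm was thus the only one with peaks at 12 and 24 h, and the 12 h EGF lists that held it were among the shortest, with 38205 and 37476 peaks. The part of list length in this was not tested. Fisher's exact test of 5 of 6 EGF against 1 of 6 vehicle libraries gave a two-sided p of 0.0801, or 1 after adjustment over the 6819 testable regions, and did not pass. Over all regions, 90 of 71600 (0.126%) were closed in every BT474 library, open in at least 5 of 6 EGF and in at most 1 of 6 vehicle libraries of BT474R.

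The GBP3 intronic region was split by time in BT474R, where it was open in 6 of 8 libraries at 0 and 1 h and in 0 of 12 at 12 and 24 h. The 6 percentiles were 11.9 at baseline, 15.7 and 4.12 with vehicle, 10.1 with EGF, and 9.94 and 11.2 with HRG. In BT474 the order was not the same, with 5 of 8 early and 12 of 12 late libraries open and percentiles from 2.86 to 25.7. BT474R lists were longer early, with a median of 52584 peaks against 43477 late. The 3 BT474R lists at 24 h with 55289, 52126 and 51080 peaks lacked the peak. The part of list length in the split was not tested. In all, 789 of 71600 regions (1.1%) were open in at least 6 of the 8 early and 0 of the 12 late BT474R libraries.

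The GBP3 intronic sequence is a dispersed one. A blastn search of chromosome 1 with at least 80% of the region aligned and 70% identity found 17 other copies, 15 of them at 90% identity or more and the closest at 95.2%. None lay within 500 kb of it. Of the 17 copies 9 coincided with a region of the series, and 4 of those were open in all 40 libraries. The other 5 varied. The copy at chr1:49802068-49802892 was open in 8 of 8 early and 1 of 12 late BT474R libraries, that at chr1:196002275-196002812 in 8 and 3, and that at chr1:147103496-147104112 in 4 and 1. Copies at chr1:174575675-174576509 and chr1:242459687-242460410 were open in 19 and 20 BT474 libraries and in no BT474R library. How reads were shared among near-identical copies is not given in the sources used here, so a peak at this position is uncertain.

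The region upstream of GBP6 held the highest percentile of the GBP regions. It was open in 20 of 20 BT474R libraries, with a lowest percentile of 6.43, a median of 35.6 and a highest of 52.9. In BT474 it was open in 17 of 20, with a median of 21.7 and a highest of 44.7. BT474R baseline libraries ranked at 52.9 and 51.2 and BT474 baseline libraries at 14.5 and 18.6, without overlap. The share of all regions without such overlap was not counted. At 12 h the order was not the same in every arm. With EGF the BT474R libraries, at 6.43 and 21.8, lay below the BT474 libraries, at 28.7 and 44.7, and with vehicle, at 16.6 and 33.7, they overlapped the BT474 values of 22.9 and 31.1. With HRG they lay above, at 37.7 and 30.8 against 21.7 and 9.03. At 24 h the lines overlapped with EGF, at 27.7 and 33.3 in BT474R against 12.4 and 31.8 in BT474. They also overlapped with vehicle, at 22.4 and 43.2 against 22.8 and 25.2. With HRG at 24 h BT474R lay above, at 28.9 and 44.3 against 21 and 28.

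In BT474 the peak upstream of GBP6 was missing only at 1 h with ligand. Both EGF libraries at 1 h and 1 of the HRG libraries had no peak, and the other HRG library had one at 0.22, near the bottom of its list. Vehicle libraries at 1 h ranked at 12.8 and 11.1. At 12 h the percentiles were back at 28.7 and 44.7 with EGF, 21.7 and 9.03 with HRG, and 22.9 and 31.1 with vehicle, and at 24 h every library had the peak. The 3 lists without it held 47571 to 52629 peaks, within the range of the line. With 2 libraries against 2, a presence test cannot reach 0.05. With the percentile set to 0 where no peak was called, limma gave differences from vehicle of -11.93 ± 6.56 (SE) points for EGF (adjusted p = 0.427) and -11.82 ± 6.56 for HRG (adjusted p = 0.347), where 3.82% and 9.61% of regions were called, so neither passed. Of all regions, 330 of 71600 (0.461%) were open in the 16 other BT474 libraries and in at most 1 of these 4. In BT474R the EGF libraries at 1 h, at 39.2 and 26.8, also lay below the vehicle libraries at 44.4 and 50.9, with a limma difference of -0.39 ± 0.27 (SE) and an adjusted p of 0.671.

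**Figure D4:**
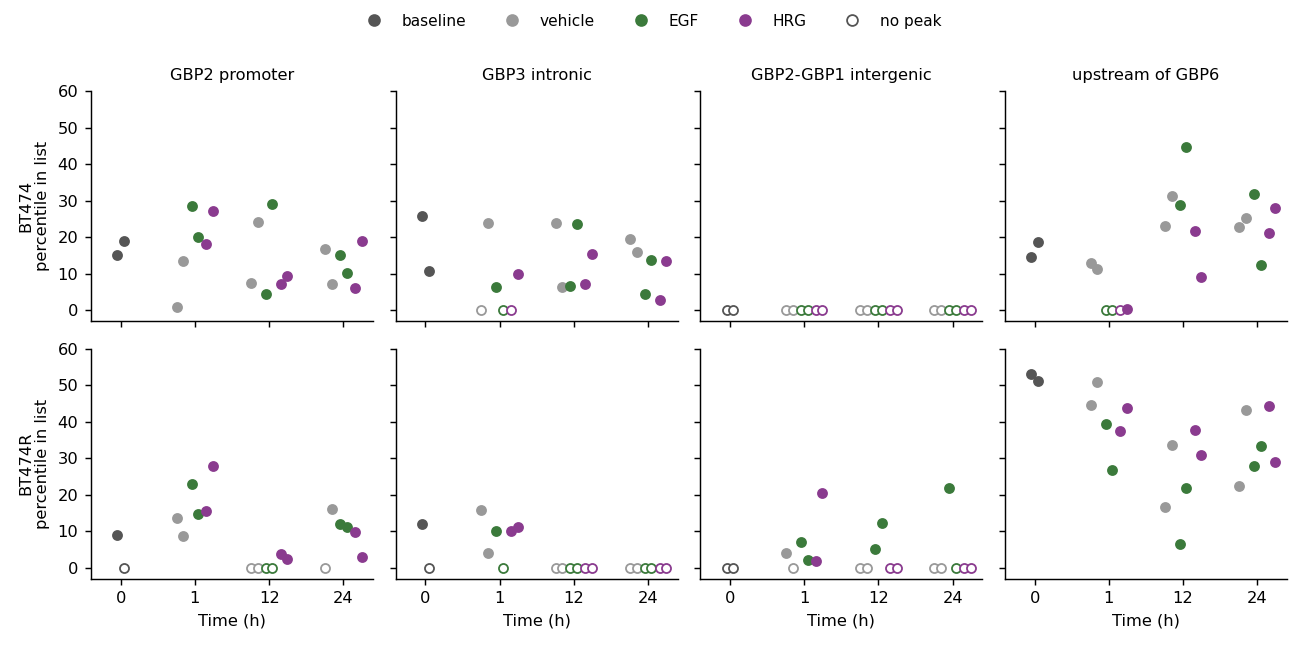
Percentile of the peak score by time after ligand or vehicle (h) for 4 regions, with BT474 above and BT474R below, 1 point per library and open points at 0 where no peak was called. The EGF and HRG points upstream of GBP6 fall to 0 or 0.22 at 1 h in BT474, and GBP3 intronic points vanish at 12 and 24 h in BT474R.

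Stretches related to the GBP2 and GBP6 regions carried no peak. The GBP2 promoter region aligned at 72.5% identity over 714 bp to chr1:89175749-89176418, at the GBP7 start, and no library had a peak there. The region upstream of GBP6 aligned at 86.5% over 661 bp to chr1:89461744-89462395, within the gene body of ENSG00000286548, also without a peak. The KYAT3/RBMXL1 edge was highly repetitive, with at least 4924 stretches of chromosome 1 at 90% identity or more. Of its copies, 64 coincided with a region and 37 of these were open in all 40 libraries.

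Between the lines, presence was compared by Fisher's exact test (two-sided, Benjamini-Hochberg over 32683 testable regions, called at an adjusted p under 0.05), which called 71.7% of all testable regions and 3 of the 7. The GBP3 intronic region was open in 6 BT474R and 17 BT474 libraries (adjusted p = 0.00228), the GBP2 promoter in 14 and 20 (adjusted p = 0.0287). The third, the GBP2-GBP1 intergenic region, was open in 8 and 0. It entered the set through BT474R libraries only, so its difference is a description. The KYAT3/RBMXL1 promoter, its edge and the region upstream of GBP6 could not reach 0.05 with their totals, and the region downstream of GBP3 did not pass (2 against 6 libraries, adjusted p = 0.272). Over the libraries with at least 47571 peaks, 9 of BT474R and 20 of BT474, 62.7% of testable regions were called. The GBP2 promoter was then open in 9 of 9 and 20 of 20 and the GBP3 intronic region in 6 of 9 and 17 of 20 (adjusted p = 0.402), so neither was called, and the GBP2-GBP1 intergenic region was open in 5 of 9 and 0 of 20. This comparison was added after the values were seen. The 9 BT474R libraries came from baseline, 1 h and 24 h, with none at 12 h, while BT474 kept all its times. Time and list length thus changed together. The BT474R libraries among them without the GBP3 intronic peak were those at 24 h.

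By rank the lines also differed. The KYAT3/RBMXL1 promoter, the only one of the 7 with a peak in all 40 libraries, was 0.09 ± 0.01 (SE) normal-score units higher in BT474R by limma (adjusted p = 9.68e-07), where 82.7% of 25166 regions were called. With percentiles over all regions, set to 0 without a peak, limma called 5 of the 7 regions and 77.7% of all regions. Among them the region upstream of GBP6 was 16.83 ± 2.44 (SE) percentile points higher in BT474R over the 10 conditions (adjusted p = 1.32e-06). Its lower EGF values at 12 h and the overlaps at 12 and 24 h are given above. The GBP2 promoter was lower, with a difference of -6.36 ± 2.22 points (adjusted p = 0.0123). So was the GBP3 intronic region, at -8.28 ± 2.23 points (adjusted p = 0.00186). The fourth was the GBP2-GBP1 intergenic region, again without a BT474 peak, and the fifth the KYAT3/RBMXL1 promoter. When each list was cut to its 32479 highest-scoring peaks, the GBP2 promoter and the intronic and intergenic regions dropped out of the analysis. The region upstream of GBP6 then stood at 15 BT474R and 1 BT474 libraries. It entered that set through BT474R libraries, so this difference is a description. At these shares of called regions, a call between the lines does not set the GBP regions apart from the rest.

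No GBP region passed the test against vehicle in either line. By Fisher's exact test on presence, 6 ligand against 6 vehicle libraries, 0 of the 7 regions were called for EGF in BT474, HRG in BT474, EGF in BT474R or HRG in BT474R, and none had an unadjusted p under 0.05. Over all testable regions 6.46%, 8.98%, 0% and 0% were called, and in the BT474R comparisons 278 of 6819 and 148 of 6415 regions had an unadjusted p under 0.05. Few of the 7 regions could have passed. Only the region downstream of GBP3 was testable for EGF in BT474 (3 of 6 against 2 of 6, exact p = 1), the GBP2-GBP1 intergenic region and the GBP2 promoter for EGF in BT474R, and none for HRG, although the GBP2 promoter was open in 6 of 6 HRG and 3 of 6 vehicle libraries of BT474R. The vehicle lists without it held 32479 to 41833 peaks and the HRG lists 42604 to 56334. The part of list length was not tested.

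The limma fit on rank at each time also called none. In BT474 it covered the KYAT3/RBMXL1 and GBP2 promoters, and in BT474R the KYAT3/RBMXL1 promoter and the region upstream of GBP6. Of all regions fitted in BT474, 2.22%, 7.88% and 14.7% were called with EGF at 1, 12 and 24 h and 9.7%, 8.48% and 11.5% with HRG. In BT474R, 0.0672%, 7.77% and 9.11% were called with EGF and, with HRG, 0%, 12.9% and 0.0955%, where limma called 0 regions for HRG at 1 h and 367 had an unadjusted p under 0.05. At an unadjusted p under 0.05 stood both GBP2 promoter differences at 1 h in BT474 given above. So did the KYAT3/RBMXL1 promoter with HRG at 12 h in BT474, at -0.15 ± 0.04 (SE, limma, adjusted p = 0.0552). Upstream of GBP6 the 6 differences in BT474R ran from -0.45 (EGF, 12 h, 95% interval -1.03 to 0.12) to 0.29 (HRG, 12 h, interval -0.29 to 0.86). With libraries left out in turn these ran from -0.82 to -0.08 and from 0.01 to 0.56, the -0.08 without the EGF library at 6.43 and the 0.01 without the vehicle library at 16.6. The intervals leave room for shifts of either sign. The test of whether a ligand acted differently in the 2 lines could be made on the normal score for regions with a peak in all 40 libraries, here the KYAT3/RBMXL1 promoter, with -0.02 ± 0.03 (SE) for EGF (adjusted p = 0.9) and 0.05 ± 0.03 for HRG (adjusted p = 0.525), where 1.86% and 0.711% of regions were called. With percentiles set to 0 without a peak it covered all 7 regions and called none for either ligand, against 9.11% (EGF) and 6.34% (HRG) of all regions.

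The GBP2-GBP1 intergenic region was the farthest of the 7 from its gene, at 17.5 kb, and the nearest region outside, chr1:89221390-89221768, lay 22.6 kb from GBP4. It was open in 14 libraries, namely 2 of 6 EGF and 2 of 6 HRG libraries of BT474 and 5 of 6 EGF and 5 of 6 HRG libraries of BT474R. No vehicle or baseline library of either line had it. No test was made for it, and the share of all regions with this pattern was not counted. A further peak inside the 20 kb, chr1:89001600-89001835, was found in 1 library (EGF, 24 h, BT474R) and so fell below the limit of 2.

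The other genes of the interferon-gamma pathway were mostly open. Of 34 genes on a fixed list, 28 had a region within 1 kb of a start and 19 of them had one in all 40 libraries. IRF8, CXCL10, CXCL11, IDO1, CASP1 and APOL1 had none. By presence, 6 of 7 testable genes had a region called between the lines, where 71.7% of all testable regions were called. ICAM1, with promoter peaks in 3 BT474R and 0 BT474 libraries, and MX2, in 0 and 2, had too few to be tested. JAK2 had its region in 0 BT474R and 20 BT474 libraries, IRGM in 0 and 19, 1 of the NLRC5 regions in 1 and 20, CD274 (PD-L1) in 0 and 12, CIITA in 0 and 11 and 1 of the WARS1 regions in 0 and 6. These regions entered the set through BT474 libraries, so the calls, their direction and the counts are a description. These are a kinase of the receptor, an autophagy-linked GTPase, the activators of MHC class I (NLRC5) and class II (CIITA) genes, an immune checkpoint ligand and a tRNA synthetase.

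By rank, 19 of the 34 genes could be compared between the lines by limma, with a region called lower in 14 of them and higher in 2 (TAP2 and HLA-E), where 82.7% of all regions were called, 12560 lower and 8247 higher. The median difference was -0.14 over their regions and -0.07 over all regions. The lowest were IRF2 at -2.12 ± 0.06 (SE, adjusted p = 2.77e-19) and IRF1 at -1.11 ± 0.05 (5.73e-16), both interferon regulatory factors, followed by NLRC5 (-0.82 ± 0.07) and SOCS3 (-0.69 ± 0.08), an inhibitor of cytokine signalling.

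Against vehicle, presence could have been called for 2 of the 34 pathway genes with HRG in BT474, where neither was, and for 0 in the other 3 comparisons. By rank, limma fitted 23 of the 34 genes in BT474 and 19 in BT474R, and few were called. Over all regions, 7.88% (EGF) and 8.48% (HRG) were called in BT474 at 12 h, and 14.7% and 11.5% at 24 h. With EGF in BT474R, 7.77% were called at 12 h and 9.11% at 24 h. Most of these regions were called higher. At 12 h in BT474, 41 regions were called lower with EGF and 218 with HRG, and at 24 h 741 and 1087. In BT474R with EGF, 548 were called lower at 12 h and 257 at 24 h. Whether the pathway genes differ from the rest in such calls was not tested. IFNGR1 was lower at 12 h in BT474 with EGF (-0.37 ± 0.09 SE, adjusted p = 0.0183) and with HRG (-0.38 ± 0.09, adjusted p = 0.014). At 24 h in BT474, SOCS3 and JAK1 were lower with EGF (-0.22 ± 0.06 and -0.29 ± 0.09) and with HRG (-0.27 ± 0.06 and -0.32 ± 0.09), and NLRC5 was higher with both (0.93 ± 0.26 and 0.85 ± 0.26). EGF and HRG shared the vehicle libraries in these comparisons. In BT474R only IRF9, an interferon regulatory factor, was called. It was higher with EGF at 12 h (0.33 ± 0.07, adjusted p = 0.0151) and 24 h (0.64 ± 0.07, adjusted p = 0.0003). The EGF effect on it was larger in BT474R than in BT474 by 0.35 ± 0.05 (limma, adjusted p = 0.00104). Of all regions 1.86% were called, 53 higher and 415 lower.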

How the data were processed

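ATAC-seq peak lists of 40 libraries were used as deposited. Per the labels and methods, the authors trimmed reads (Trim Galore 0.6.6), aligned them to GRCh38 (hg38) with BBMap and called peaks per library with Genrich, which also dropped mitochondrial and blacklisted reads. The deposited values were a peak score (column 7, the area of significance, at least 200 in every list), −log10 p and q-values, which were not used, and positions. Peaks on chromosomes 1 to 22 and X were kept. They were merged into regions, and the regions, gene lists and motifs were chosen with earlier results of these data known. From these lists 1 leukocyte marker and 1 pathway gene are not reported here. Annotation was GENCODE v44, and all peaks lay within hg38 chromosome lengths. Regions named in full were GBP promoters and the region with the smallest p of each comparison. Presence was tested by Fisher's exact test (scipy 1.17.1) and rank by limma 3.58.1 (R 4.3.3, empirical Bayes with trend, 10 group means per line or 20 over both), each with Benjamini-Hochberg adjustment. Copies were searched with blastn. Scripts were tested on simulated data. Alternatives were a score of at least 400, the 32479 top peaks of each list, peaks trimmed to 400 bp or covering at least 50% of a region, regions in at least 4 lists, strata, a replicate block, other scalings and leaving out each library.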

Additional observations from a re-analysis of the deposited data

How the results depend on the processing

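Of 1462 recomputed values for the 7 regions, 1427 were classed as unchanged. For a number of regions called, this meant an equal or similar number. For a single region it meant the same direction and side of the threshold. By rank, the single regions were those called or with the smallest p of a comparison. Many counts were 0 and many regions could not be tested, so the 1427 does not measure how robust the results are. Between the lines, the number of regions called by presence fell from 3 to 1 with peaks of a score of at least 400, with equal numbers of top-scoring peaks, and with lists at least as long as the shortest BT474 list. In the first 2 settings the 3 regions dropped out and the 1 called was the region upstream of GBP6. It then entered the set through BT474R libraries, so these calls are a description. In these settings 15736 of 21876 and 14481 of 19028 testable regions were called. The region upstream of GBP6 was also called with 50% coverage (Fisher's exact test, adjusted p = 0.00253). In the long lists the 1 was the GBP2-GBP1 intergenic region, which had no BT474 peak. By rank it rose from 1 to 5 with percentiles over all regions and fell to 0 with the score divided by peak width, which turned the KYAT3/RBMXL1 promoter to -0.05. The GBP2 promoter region in BT474R against BT474 was also not called when peaks had to cover 50% of the region (adjusted p = 0.387). For HRG in BT474 at 12 h the count rose from 0 to 1, the KYAT3/RBMXL1 promoter, with equal numbers of peaks and with the quantile-normalized log2 score, and ranged from 0 to 1 when libraries were left out, with 1 without either replicate of HRG at 1 h or of EGF at 12 h (adjusted p from 0.0396 to 0.049).

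Directions of differences that were not called turned in these cases. Upstream of GBP6, presence with EGF in BT474 turned to 16.7 percentage points higher with a score of at least 400, with equal numbers of peaks and with 50% coverage, EGF in BT474R at 24 h turned to 0.20 with width scaling and ran from -0.34 to 0.25 when libraries were left out, and HRG at 12 h turned to -0.10 with width scaling and -0.13 with the quantile-normalized score. The KYAT3/RBMXL1 promoter turned with width scaling to -0.26 (EGF, BT474, 24 h), 0.10 (HRG, BT474R, 24 h) and 0.19 (EGF effect between lines). The causes were not tested.

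Over all regions, presence counts were 290 for EGF in BT474 against 126 with equal numbers and 0 with the replicate block or time strata, 427 for HRG against 255 with equal numbers, and 0 for EGF in BT474R against 263 with equal numbers and 278 with time strata. By rank in BT474 at each time, 816 to 5403 regions were called, 15 to 1024 with the score divided by width and 2294 to 8831 with percentiles over all regions. In BT474R 0 to 3653 were called, 0 to 862 with width scaling and 477 to 9680 with percentiles over all regions. Leaving out 1 library moved the count for HRG in BT474R at 12 h from 3653 to between 408 (without HRG replicate 1) and 10431 (without vehicle replicate 2), at 24 h from 27 to between 10 (without vehicle replicate 1) and 442 (without vehicle 12 h replicate 1), and for EGF in BT474 at 12 h from 2902 to between 546 and 6662 (without EGF replicate 2 and 1). Replicate numbers did not pair the libraries consistently. Over 45 pairs of groups, correlations of deviations had a median of 0.0035 in BT474 (from -0.18 to 0.54) and 0.0044 in BT474R (from -0.32 to 0.4). Some pairs of groups thus shared deviations. The replicate block changed no call of the 7 regions, with 3 called between the lines by presence and 1 by rank. A missing peak in a list without counts cannot be told from low depth.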
